A study of Arabidopsis thaliana with 12 samples.

Results

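The transcriptome of the Arabidopsis thaliana mutant efs was set against that of the wild type Col. The comparison covered 19536 genes, those with at least 1 TPM (a transcript level scaled by gene length and by library size to a fixed sum) in 3 or more of the 6 efs and Col libraries, of 23916 genes in the table. The design text names transcript changes in efs and in 2 histone H3.3 lines as the object of the study. Seedlings labelled efs carry a mutation in a histone methyltransferase, and the labels give neither the lesion nor the allele. The seedlings used as further points of reference were labelled h3.3ko;HTR5 K36A and h3.3ko;HTR5 T31A. These lines lack H3.3, per their label, and carry a copy of the H3.3 gene HTR5 with alanine in place of the lysine or the threonine that the label names. The labels give neither the promoter of that copy nor the number of lines, and a knockout with an unmutated copy was not analysed here. Col is labelled WT. All plants were 10-day-old seedlings raised at 22 °C under days of 16 h light and nights of 8 h, and total RNA was sequenced from 3 libraries of each genotype.

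EFS, also called SDG8, places methyl groups on a lysine of histone H3 (H3K36) over the bodies of transcribed genes, a mark of active transcription. Plants that lack it are known to flower early, because the MADS-box repressor FLC is poorly expressed, and to branch more, with altered carotenoid composition. The K36A line changes the lysine that EFS methylates, on H3.3 alone, whereas the threonine of the T31A line is a residue by which H3.3 differs from the canonical H3.1.

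Libraries held between 17620998 and 34098031 recovered reads over the 12 libraries. Across genes, log2(TPM + 1) correlated at 0.9941 to 0.9944 between efs libraries, at 0.9851 to 0.9942 between Col libraries and at 0.9463 to 0.9554 between the genotypes. The genotypes separated on the first principal component, which held 78.8% of the variance of the 6 libraries. Col replicate 1 stood apart from the other Col libraries on the second, at 26.7 against -12.1 and -15.4, so counts that move by over 1.5 times without it are given both ways. Whether libraries of 1 genotype came from separate cultures is not in the labels, and the p-values therefore speak only of the spread among these libraries, which may be technical. The EFS transcript itself (AT1G77300, chr1:29039922-29049454, minus strand, build TAIR10.1) was at 14.7, 14.9 and 16.6 TPM in efs and 17.5, 13.6 and 15.5 TPM in Col, and these ranges overlapped. It was not called (log2 difference -0.01, SE 0.12, adjusted p = 0.974, limma), the gene overlaps AT1G77290, and a lesion that leaves the transcript level unchanged would not show in this value. CRTISO and MAF1, described below, are genes whose transcript is known to depend on EFS.

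Differences between efs and Col were spread over much of the transcriptome, and most were smaller than 2-fold. Of 19536 genes, 9684 were called (49.6%) at an adjusted p under 0.05 in the moderated test of limma with Benjamini-Hochberg adjustment. Of all genes, 31.9% were called higher in efs (6230) and 17.7% were called lower (3454). With a change of at least 2-fold as well, 2.95% were higher (576) and 3.16% were lower (617). Differences are given as log2 differences on the log2(TPM + 1) scale, efs minus Col, which understates the change of genes with few TPM. The median over all genes was 0.117 on this scale, and 0.017 when libraries were scaled by median-of-ratios factors, so that the scaling moved all genes by about 0.1. Under that scaling 4172 genes were called higher and 4656 lower, and the larger count changed sides (47.3% of the called genes were higher, against 64.3% on TPM as deposited). The groups of genes below keep their direction under both scalings, unless stated. They are read against a background of 31.9% higher and 17.7% lower on TPM as deposited. Counts under the median-of-ratios scaling are read against its 4172 higher and 4656 lower of 19536 genes. The efs and Col values did not overlap in 10798 of the 19536 genes, so a lack of overlap in a named gene is common here. In RNA of whole seedlings, fewer cells of a type and less RNA per cell cannot be told apart.

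**Figure D1:**
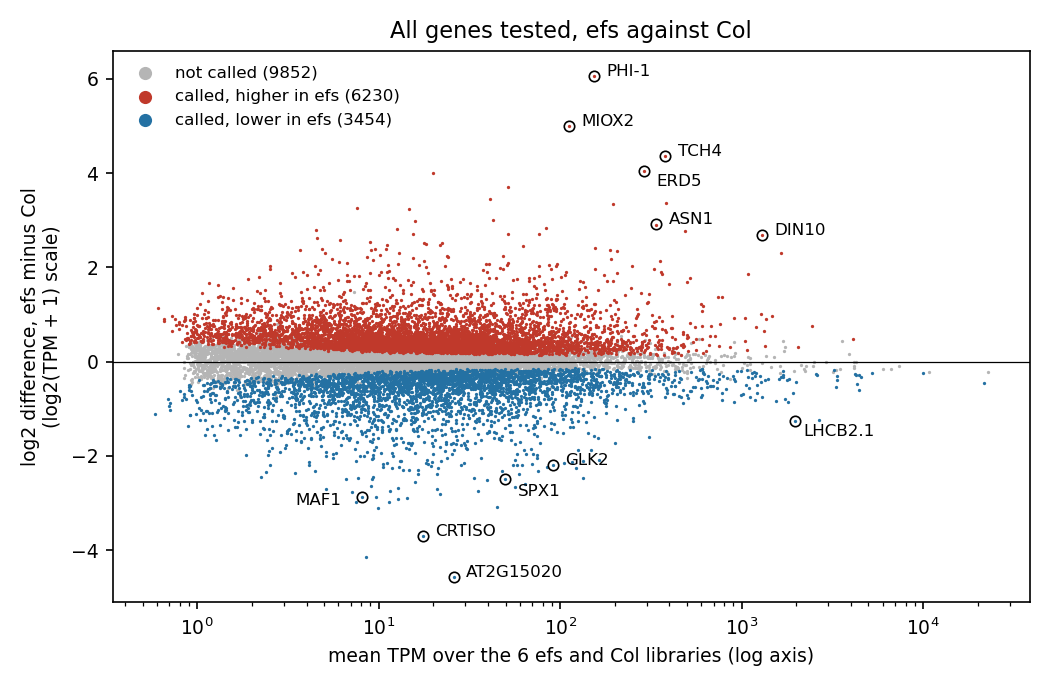
Each point is 1 of the 19536 genes tested, with its mean TPM over the 6 libraries on a log axis and its log2 difference, efs minus Col, on the vertical axis. Called genes that were higher in efs (6230) are red, called genes that were lower (3454) are blue, and circles mark named genes from PHI-1 at 6.06 to AT2G15020 at -4.58.

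Genes tied to EFS in earlier work were among the largest falls. CRTISO (AT1G06820), the carotenoid isomerase of the lutein pathway, was at 1.68, 1.57 and 1.71 TPM in efs, against 33.9, 33.8 and 32.6 TPM in Col. The 6 values do not overlap, and the level in Col was about 20 times that in efs on the TPM scale (20.2-fold from the group means). The log2 difference was -3.7 (SE 0.07, adjusted p = 1.1e-13, limma). LAZ5 (AT5G44870), a resistance-type immune receptor, was at 3.18, 3.78 and 3.27 TPM in efs and 21.6, 18.2 and 20.8 TPM in Col (log2 difference -2.26, SE 0.10). CYP79F1, an enzyme of aliphatic glucosinolate synthesis treated below, and the FLC and MAF1 genes also fell. TCH3 (AT2G41100), a calmodulin-like protein gene that overlaps 2 annotated genes, was at 9.02, 9.34 and 10.8 TPM in efs, against 1.67, 1.33 and 1.16 TPM in Col, and rose by 2.17 (SE 0.11). Of the 9 genes on the list, 1 rose, 5 fell and 3 were not called, with a median of -2.19. Among the genes not called were CER3, a wax synthesis gene at a log2 difference of 0.12, and the immune receptor gene RPM1 at -0.18.

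The FLC clade, MADS-box repressors of flowering, fell in part. FLC (AT5G10140) was at 0.183, 0.275 and 0.327 TPM in efs, against 4.67, 5.13 and 4.45 TPM in Col. MAF1 (AT1G77080, chr1:28955483-28960234) was at 1.29, 1.19 and 1.07 TPM in efs, against 15.3, 15.4 and 14.1 TPM in Col. It lies on the chromosome of EFS, inside the window of 500000 bases around EFS described below. For neither gene do the groups overlap, and the log2 differences were -2.19 (SE 0.12, adjusted p = 2.1e-09) and -2.87 (SE 0.09, adjusted p = 1.5e-11, limma). MAF4 and MAF5 were at 1.05 ± 0.1895 and 0.394 ± 0.149 TPM in efs, against 3.62 ± 0.05599 and 1.88 ± 0.489 TPM in Col (mean ± SD, n = 3 each, as for all values of this form), and fell by log2 differences of -1.18 and -1.04. MAF2, the neighbour of MAF3, was at 22.4, 19.5 and 20.6 TPM in efs and 23.8, 24.5 and 20.2 TPM in Col, and MAF3 at 7.91, 6.94 and 5.64 TPM in efs and 6.09, 6.47 and 5.804 TPM in Col. Both had overlapping groups and were not called (adjusted p = 0.238 and 0.351, limma). Thus 4 of 6 members fell, and 5 under the median-of-ratios scaling, where MAF2 was at -0.23. Reads of FLC may include some of AT5G01675, which it overlaps, and the MAF genes next to each other on chromosome 5 are similar enough to share reads.

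Other genes of flowering time moved in both directions, with 7 of 13 tested members higher and 5 lower. TEM1, a repressor of the florigen gene FT, was at 93.3, 99.6 and 84.2 TPM in efs, against 35.3, 35.5 and 38.9 TPM in Col (log2 difference 1.31, SE 0.07). SEP3, a floral organ MADS-box gene, rose by 1.01 to 24.5 ± 1.71 TPM in efs, against 11.7 ± 0.8397 TPM in Col. The AP2-type repressor genes SNZ and TOE1 fell to 4.33 ± 0.789 and 40.1 ± 0.597 TPM in efs, against 19.4 ± 3.29 and 88.7 ± 14.01 TPM in Col. SVP, a MADS-box repressor that partners with FLC, was at 39.1, 38.4 and 37.5 TPM in efs and 86.1, 67.3 and 65.6 TPM in Col (log2 difference -0.90, SE 0.09). Repressors of flowering therefore stood on both sides, TEM1 among the rises and FLC, SVP, SNZ and TOE1 among the falls.

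The enzymes and readers of H3K36 methylation other than EFS differed by less than 1 on the log2 scale. Of 7 tested members, EFS included, 4 rose, none fell and 3 were not called. The H3K36 methyltransferase gene ASHH1, which overlaps an annotated gene, was at 15.04 ± 1.13 TPM in efs and 10.4 ± 0.463 TPM in Col (log2 difference 0.49, SE 0.08). The histone demethylase gene JMJ30 was at 63.5, 60.03 and 55.6 TPM in efs, against 33.97, 40.1 and 35.2 TPM in Col, and had the largest difference of the list, 0.70 (SE 0.07). The chromodomain reader gene MRG1 differed by 0.38 (SE 0.07). ASHH3 and ASHR3, coding for related methyltransferases, had differences of 0.17 and -0.26 and were not called. Under the median-of-ratios scaling 3 of the 7 rose and 1 fell.

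**Figure D2:**
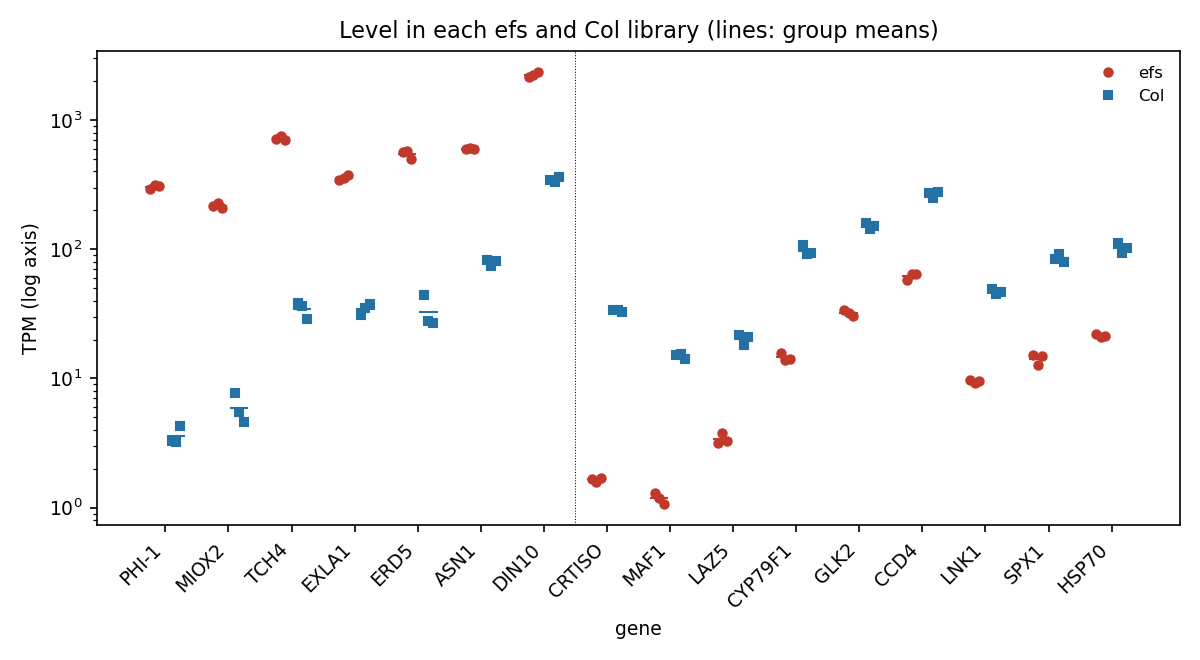
TPM on a log axis in each of the 3 efs libraries (red circles) and the 3 Col libraries (blue squares) for 7 genes that rose, left of the dotted line, and 9 that fell, right of it. Short lines are group means, and in each of the 16 genes the efs values lie wholly on one side of the Col values.

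Genes that loosen or remodel the cell wall and genes of the EXORDIUM family made up 5 of the 12 largest rises. PHI-1 (AT1G35140), an EXORDIUM family gene named after its induction by phosphate in tobacco cells, was at 293, 315 and 306 TPM in efs, against 3.25, 3.24 and 4.296 TPM in Col. The group means stood 84.8-fold apart, with a log2 difference of 6.06 (SE 0.09, adjusted p = 9.2e-15, limma), the largest rise named. EXLA1 (AT3G45970), an expansin-like wall protein gene that overlaps AT3G45980, was at 340.2, 354 and 378 TPM in efs, against 31.1, 34.9 and 37.5 TPM in Col (log2 difference 3.34, SE 0.09). Neither gene has overlapping groups. Their upstream sequences are shown because each holds the motif CGCGTT, the core of an element known from genes that respond rapidly to stress, which was found more often upstream of rising genes (below). They are the 250 bases before the annotated start in RefSeq's TAIR10.1 genome, chr1:12851733-12851982 and chr3:16895916-16896165, both on the plus strand, with the motif in capitals, here read on the opposite strand.
PHI-1: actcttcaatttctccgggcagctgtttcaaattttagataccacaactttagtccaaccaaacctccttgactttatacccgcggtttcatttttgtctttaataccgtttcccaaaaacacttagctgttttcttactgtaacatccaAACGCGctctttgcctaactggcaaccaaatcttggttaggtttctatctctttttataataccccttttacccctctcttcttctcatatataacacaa
EXLA1: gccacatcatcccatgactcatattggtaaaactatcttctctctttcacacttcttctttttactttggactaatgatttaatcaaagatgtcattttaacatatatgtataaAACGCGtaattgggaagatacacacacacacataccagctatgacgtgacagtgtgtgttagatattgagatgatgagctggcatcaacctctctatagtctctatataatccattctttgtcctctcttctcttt
The motif begins 100 bases before the start in PHI-1 and 136 bases before it in EXLA1.

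The EXORDIUM family, secreted proteins that promote growth and are known from Arabidopsis as brassinosteroid-responsive, rose in 6 of 7 members, with a median of 1.85. EXO (AT4G08950), after which the family is named, was at 708, 756 and 633 TPM in efs, against 96.6, 61.8 and 50.1 TPM in Col (log2 difference 3.36, SE 0.18, adjusted p = 1.8e-09, limma). Col replicate 1 was the highest of the Col libraries in EXO, and all 3 efs libraries lay far above it. EXL5 and EXL3 were at 311 ± 15.3 and 573 ± 25.95 TPM in efs, against 68.7 ± 14.97 and 159 ± 26.9 TPM in Col. EXL4 and EXL2 rose by 1.1 and 0.86, and EXL7, the lowest member at 4.29 ± 1.33 TPM in efs and 5.06 ± 0.892 TPM in Col, was not called.

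Xyloglucan endotransglucosylases (XTH), enzymes that cut and rejoin the hemicellulose xyloglucan, rose in 20 of 29 members and fell in 3, with a median of 0.73. TCH4 (AT5G57560), a touch-induced XTH, was at 707, 758 and 704 TPM in efs, against 38.5, 36.4 and 28.6 TPM in Col (log2 difference 4.36, SE 0.09, adjusted p = 1.1e-13, limma). XTH23 (AT4G25810), also called XTR6, was at 101, 99.9 and 88.7 TPM in efs, against 7.36, 5.96 and 6.12 TPM in Col (log2 difference 3.71, SE 0.08). XTH24 was already abundant in Col and was at 763 ± 34.2 TPM in efs, against 236 ± 13.6 TPM in Col. XTH25 and XTH33 rose to 15.9 ± 0.359 and 19.00 ± 1.55 TPM in efs, against 1.94 ± 0.418 and 2.81 ± 0.431 TPM in Col. The summed level of the 29 genes was 4360 to 4581 TPM in efs and 2028 to 2119 TPM in Col, on the scale of gene spans. The 3 members that fell had log2 differences of -0.36, -0.89 and -1.03, and the 6 not called lay between -0.03 and 0.28.

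Expansins, which loosen the wall without cutting it, split by direction: 6 of 22 rose and 10 fell, with a median of -0.05. EXPA8 (AT2G40610) was at 40.2, 43.5 and 36.2 TPM in efs, against 256, 219 and 207 TPM in Col (log2 difference -2.47, SE 0.10). EXPA1 (AT1G69530), the most abundant of the named ones in Col, was at 96.4, 92.2 and 89.6 TPM in efs, against 343, 294 and 292 TPM in Col (log2 difference -1.73, SE 0.08). EXPA5 fell by a log2 difference of -0.92, and EXLA2, the relative of EXLA1, rose by 1.34 to 44.2 ± 3.52 TPM in efs, against 16.8 ± 0.951 TPM in Col. The 2 named expansin-like genes thus rose while the 3 named alpha-expansins fell. The list holds further members of both kinds, so this is no statement about either kind as a whole. No EXPA gene is named among the rises because the rule for named genes took the 5 members with the smallest p.

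Touch and rapid stress genes, many of which also answer handling and wounding, rose in 10 of 17 members and fell in 3 (median 0.83). TCH2 (AT5G37770), a calmodulin-like gene, was at 51.4, 53.7 and 50.9 TPM in efs, against 17.3, 17.1 and 17.9 TPM in Col (log2 difference 1.53, SE 0.07). CAF1a, a subunit of a deadenylase that shortens the tails of transcripts, rose by 1.62 (SE 0.08), and the ERF-type factor gene ERF6 by 1.53 (SE 0.11). TCH4 and TCH3, given above, belong to this list as well and had its largest rises.

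Genes induced by darkness and sugar starvation rose together. The labels give no hour of harvest, and its part in the level of these genes was not tested. All 18 tested members of the list were called higher in efs, of 20 in the table, with a median of 1.46 against 0.12 over all genes. Under the median-of-ratios scaling 17 of the 18 were called, all higher. ASN1 (AT3G47340), an asparagine synthetase that stores nitrogen when carbon is short, was at 592, 603 and 597 TPM in efs, against 82.2, 73.6 and 80.7 TPM in Col (log2 difference 2.91, SE 0.06, adjusted p = 1.1e-13, limma). It overlaps AT3G47341. DIN10 (AT5G20250), a dark-induced raffinose synthase family gene that overlaps AT5G20260, was at 2134, 2238 and 2338 TPM in efs, against 343, 332 and 364 TPM in Col (log2 difference 2.69, SE 0.08). In neither gene did any Col library come near the efs values, and DIN10 was the most abundant member of the list in both genotypes.

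MIOX2 (AT2G19800), a myo-inositol oxygenase that feeds inositol into sugar acids, was at 215, 227 and 209.9 TPM in efs, against 7.65, 5.504 and 4.64 TPM in Col. Its log2 difference of 5.0 (SE 0.12, adjusted p = 1.7e-12, limma) was exceeded among named genes by PHI-1 alone. BT2 (AT3G48360), a BTB scaffold protein gene that responds to sugar and nitrate, was at 343 ± 4.61 TPM in efs, against 67.00 ± 3.87 TPM in Col (log2 difference 2.34). MCCA, a subunit of the leucine-degrading methylcrotonyl-CoA carboxylase, rose by 2.02 to 123 ± 2.37 TPM in efs, against 29.6 ± 1.18 TPM in Col, and overlaps 2 annotated genes. The other 13 tested members, among them genes of branched-chain amino acid breakdown and of trehalose phosphate synthases, rose by 0.39 to 2.51.

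Of 9 genes of proline synthesis and breakdown, 2 rose, 1 fell and 6 were not called. Both shares lay below those of all genes (31.9% higher and 17.7% lower). ERD5, a gene of the first enzyme of breakdown, rose, and of the 2 genes for the first enzyme of synthesis, P5CS1 fell and P5CS2 was not called. ERD5 (AT3G30775), a proline dehydrogenase gene, was at 567, 573 and 495 TPM in efs, against 44.1, 27.8 and 26.9 TPM in Col (log2 difference 4.04, SE 0.15, adjusted p = 5.1e-11, limma). Col replicate 1 was the highest Col library, and all 3 efs libraries lay far above it. AT5G38710, listed as proline-related and named in the annotation as of the methylenetetrahydrofolate reductase family, rose by 0.87 (SE 0.14). P5CS1 (AT2G39800), a pyrroline-carboxylate synthetase, was at 15.6, 14.5 and 16.1 TPM in efs, against 44.5, 40.7 and 43.3 TPM in Col (log2 difference -1.42, SE 0.08). P5CS2 (AT3G55610), the second gene of that enzyme, was at 45.5, 44.2 and 45.4 TPM in efs and 44.1, 44.5 and 45.9 TPM in Col, with overlapping groups (log2 difference 0.01, SE 0.06). The other members not called, transporters and other enzymes of the pathway, lay between 0.00 and 0.16. The upstream sequence of ERD5 is shown because the gene is known for the motif ACTCAT, which S1-group bZIP factors bind in proline-responsive genes. It is chr3:12451557-12451806 on the minus strand in RefSeq's TAIR10.1, the 250 bases before the start, with the motif in capitals as read on the opposite strand.
ERD5: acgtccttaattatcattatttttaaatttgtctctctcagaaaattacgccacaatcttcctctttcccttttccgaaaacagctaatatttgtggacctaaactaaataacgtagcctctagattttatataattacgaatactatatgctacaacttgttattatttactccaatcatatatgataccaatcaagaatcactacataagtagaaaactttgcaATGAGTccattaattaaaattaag
The motif begins 24 bases before the annotated start. It is found in 14% of all 19420 promoter windows searched (below), and whether this copy is one that bZIP factors bind was not tested. Of the S1-group bZIP factor genes, 3 of 5 rose and none fell: bZIP1 was at 138, 155 and 137 TPM in efs, against 68.97, 70.9 and 69.3 TPM in Col (log2 difference 1.03, SE 0.06), BZIP53 rose by 0.59 and bZIP44 by 0.49.

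**Figure D3:**
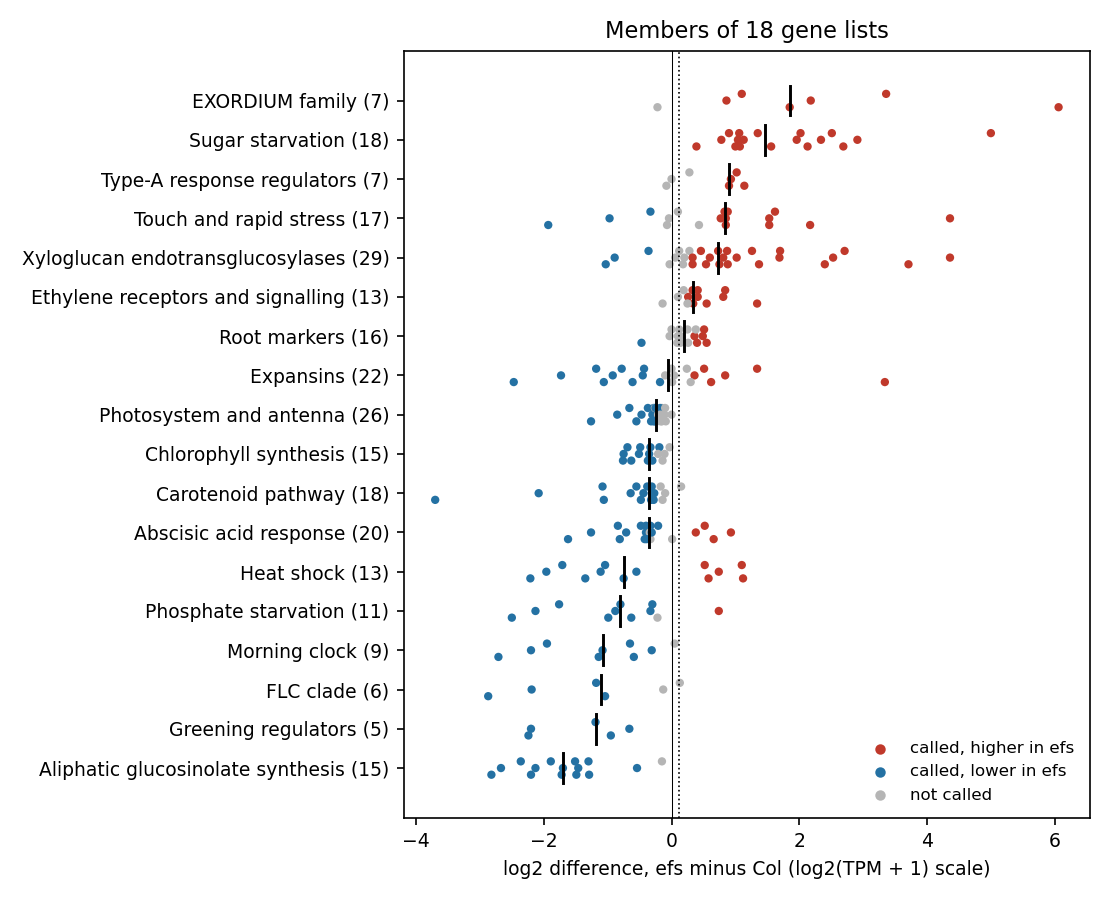
Log2 differences, efs minus Col, of the tested members of 18 gene lists, with the number tested in brackets. Points are genes (red called higher, blue called lower, grey not called), black bars are list medians, and the dotted line is the median of all genes (0.12). Sugar starvation genes all lie right of 0, and the greening regulators all lie left of it.

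Many genes that make and regulate the green plastid were lower in efs, though the count in the photosystem list depended on the processing. The 5 greening regulators tested all fell, with a median of -1.19. GLK1 (AT2G20570) and GLK2 (AT5G44190), paired factors that switch on genes of chloroplast development, were at 27.8, 30.3 and 27.9 and 33.6, 32.1 and 30.2 TPM in efs, against 166, 129 and 126 and 158, 143 and 150.01 TPM in Col, in each case in the order of the libraries. Their log2 differences were -2.24 (SE 0.10) and -2.2 (SE 0.07, adjusted p = 1.5e-11, limma). The GATA factor genes GNC and GNL fell by log2 differences of -1.19 and -0.95, and HY5, which promotes development in light, by a difference of -0.66 (SE 0.11). All values of these 5 genes were lower in each efs library than in any Col library. Of the 19536 genes tested, 10798 likewise had groups that did not overlap, in either direction.

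Of 15 tested genes of chlorophyll synthesis, 11 fell and none rose (median -0.35). CRD1, the cyclase that forms the fifth ring of chlorophyll, was at 956, 945 and 995 TPM in efs, against 1731, 1551 and 1603 TPM in Col (log2 difference -0.75, SE 0.06), and overlaps 2 annotated genes. GUN5, a subunit of magnesium chelatase, was at 442 ± 30.1 TPM in efs, against 748 ± 65.2 TPM in Col, and CHLI1, another subunit, at 338 ± 6.87 TPM in efs, against 483 ± 27.7 TPM in Col. CAO, which makes chlorophyll b, and PORC, a light-dependent oxidoreductase, had log2 differences of -0.63 and -0.69. Of 26 genes of photosystems and antennae, 15 fell and none rose, with a smaller median of -0.25. LHCB2.1 (AT2G05100), an antenna protein of photosystem II, was at 1152, 1163 and 1149 TPM in efs, against 2618, 2820.1 and 2864 TPM in Col (log2 difference -1.26, SE 0.06, adjusted p = 7.3e-10, limma). LHCB2.2, its near copy, differed by -0.85, LHCB3 by -0.47, and the photosystem II subunit genes PSBY and PSBO2 by -0.66 and -0.37. The near copies are uncertain taken singly. The count of falls in this list depended on the processing, with 24 of 26 lower without Col replicate 1, 16 under the median-of-ratios scaling and 6 under quantile normalization, and no member higher under any of these. Under quantile normalization 4371 of all 19536 genes were lower, a share close to that of the list, whose median was then -0.09.

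The carotenoid pathway fell in 14 of 18 tested members, with none higher (median -0.35). Besides CRTISO, CCD4 (AT4G19170), a dioxygenase that cleaves carotenoids, was at 57.5, 63.9 and 64.8 TPM in efs, against 273, 247 and 277 TPM in Col (log2 difference -2.08, SE 0.07, adjusted p = 1.5e-11, limma). ABA1, the zeaxanthin epoxidase on the way to abscisic acid, was at 81.9, 80.2 and 80.8 TPM in efs, against 179, 169.5 and 163 TPM in Col (log2 difference -1.06, SE 0.06). LUT2, the lycopene epsilon cyclase of the lutein branch, differed by -0.64, and the beta-carotene hydroxylase gene BCH2 by -1.08. Both overlap a neighbouring gene. Markers of other tissues were read beside these greens. Of 16 root marker genes tested, 5 were higher in efs and 1 was lower (median 0.20), 10 were higher and none lower without Col replicate 1, none was lower without efs replicate 1 or 3, and 3 and 1 under the median-of-ratios scaling. Their summed level was 2682 to 2751 TPM in efs and 2617 to 2832 TPM in Col, ranges that overlap, and none was at 0 in the 6 libraries. Of 9 stomatal lineage and shoot meristem markers, 3 were lower and none higher (2 and 1 without Col replicate 1), with sums of 134.3 to 136.2 TPM in efs and 133.9 to 155.9 TPM in Col. Their part in the fall of the plastid genes was not tested.

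Genes of aliphatic glucosinolate synthesis, which makes defence compounds from methionine, fell in 14 of 15 members (median -1.70). MYB29 (AT5G07690), a regulator of the pathway and 1 of the 12 largest falls, was at 4.18, 5.02 and 4.72 TPM in efs, against 46.6, 36.8 and 33.8 TPM in Col (log2 difference -2.82, SE 0.12, adjusted p = 1.4e-10, limma). CYP79F1 (AT1G16410), which makes aldoximes from elongated methionine, was at 15.7, 13.8 and 14.1 TPM in efs, against 107, 92.3 and 93.9 TPM in Col (log2 difference -2.67, SE 0.07). CYP83A1, the next enzyme, was at 66.6, 61.4 and 60.2 TPM in efs, against 246, 227 and 231 TPM in Col (log2 difference -1.89, SE 0.06). The regulator, the committed step and the following step thus differed in the same direction, with no overlap between the groups. BCAT4, which starts the elongation of methionine and overlaps AT3G19700, fell by a log2 difference of -2.2, and GSTU20, a glutathione transferase, by one of -1.51. CYP79F1 has a close copy, so that reads may be shared.

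The indolic branch, made from tryptophan, did not follow: 6 of 11 tested members were higher in efs and 1 was lower (median 0.24). CYP81F2, which modifies indole glucosinolates, was at 7.602, 8.89 and 7.09 TPM in efs, against 1.84, 2.43 and 1.67 TPM in Col (log2 difference 1.58, SE 0.13). CYP71A12, of the camalexin branch, was the member that fell, at 0.354, 0.3401 and 0.657 TPM in efs, against 2.699, 2.93 and 2.73 TPM in Col (log2 difference -1.39, SE 0.11). CYP79B3 and CYP79B2, which make the shared aldoxime, and the methyltransferase gene IGMT1 differed by 0.35, 0.28 and 0.33. With the median-of-ratios scaling 4 members were higher.

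Clock genes that peak in the morning were lower in efs in 8 of 9 tested members (median -1.08). LNK1 (AT5G64170), a coactivator of clock genes, was at 9.67, 9.18 and 9.55 TPM in efs, against 49.6, 45.1 and 46.96 TPM in Col (log2 difference -2.2, SE 0.07, adjusted p = 1.5e-11, limma), and overlaps AT5G64160. PRR9 (AT2G46790), a repressor in the morning loop, was at 0.605, 0.449 and 0.7703 TPM in efs, against 12.8, 7.88 and 8.37 TPM in Col (log2 difference -2.71, SE 0.17). CCA1 (AT2G46830), the MYB factor at the core of the clock, was at 5.99, 5.44 and 5.48 TPM in efs, against 13.2, 13.02 and 12.8 TPM in Col (log2 difference -1.08, SE 0.08). In each of the 3 genes the efs libraries lay below all Col libraries. LNK3 and RVE8 fell by log2 differences of -1.95 and -1.14. The PRR9 promoter is shown because it holds 2 copies of the motif CACGTG (the G-box), which was found more often upstream of falling genes than of all genes (below). It is chr2:19232357-19232606 on the plus strand in RefSeq's TAIR10.1, the 250 bases before the start, with the motif in capitals.
PRR9: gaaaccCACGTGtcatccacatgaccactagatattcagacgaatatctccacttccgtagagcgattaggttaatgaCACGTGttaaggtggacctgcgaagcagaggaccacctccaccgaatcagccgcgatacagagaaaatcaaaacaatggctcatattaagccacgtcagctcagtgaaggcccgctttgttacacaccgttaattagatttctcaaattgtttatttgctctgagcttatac
The copies begin 244 and 172 bases before the annotated start.

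Of 10 evening clock genes, 5 were higher in efs and 2 were lower (median 0.19). TOC1 (AT5G61380), the evening repressor of CCA1, was at 159, 157 and 159 TPM in efs and 136, 107 and 113 TPM in Col (log2 difference 0.42, SE 0.07). ELF4, LUX and BOA, which belong to or resemble parts of the evening complex, rose by 0.43, 0.39 and 0.64, and PRR3 fell by a log2 difference of -0.59 (SE 0.07). The differences among evening genes were smaller than among morning genes, and a test of that difference was not made. The labels give no hour of harvest, so an hour that differed between the genotypes cannot be told apart from a change in clock gene level. The same limit holds for any other gene whose level varies over the day, and for the contrasts with the H3.3 lines.

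Genes of phosphate starvation were mostly lower, 9 of 11 tested members lower and 1 higher (median -0.80). SPX1 (AT5G20150), a phosphate sensor protein gene, was at 15.2, 12.7 and 14.8 TPM in efs, against 83.3, 92.1 and 79.8 TPM in Col (log2 difference -2.5, SE 0.09, adjusted p = 4.6e-11, limma). PAP17, a purple acid phosphatase gene that overlaps AT3G17800, was at 7.45, 6.86 and 5.76 TPM in efs, against 31.8, 33.2 and 32.6 TPM in Col (log2 difference -2.13, SE 0.09). PS2, a phosphatase gene induced by starvation, fell to 0.871 ± 0.3296 TPM in efs, against 5.29 ± 0.225 TPM in Col. SQD1 and SQD2, which make the sulfolipid that replaces phospholipid, had log2 differences of -0.80 and -0.88. The phosphate-named PHI-1, with the opposite direction, is no member of this list.

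Iron deficiency genes fell in 7 of 14 members and rose in 2 (median -0.23), or in 1 under the median-of-ratios or quantile scaling or without efs replicate 1. NAS4, a nicotianamine synthase, was at 9.403, 7.38 and 8.33 TPM in efs, against 35.98, 28.2 and 30.7 TPM in Col (log2 difference -1.8, SE 0.10). The regulators of the response PYE, bHLH100, bHLH101 and BHLH39 had log2 differences of -0.95, -1.06, -0.85 and -0.69. Of 13 nitrate genes, 2 were higher and 4 lower, and 7 were lower under the median-of-ratios scaling. The nitrate reductase gene NIA1 rose to 214 ± 4.86 TPM in efs, against 136 ± 10.4 TPM in Col, as did the LOB factor gene LBD38 (log2 difference 0.71). NIR1, the nitrite reductase gene that follows it, fell to 169 ± 8.299 TPM in efs, against 246 ± 14.2 TPM in Col, as did ASN2 (log2 difference -0.51) and the glutamate synthase gene GLU1 (-0.47). ASN2 therefore stood opposite to its relative ASN1.

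Heat shock genes moved in both directions. Of 13 tested members 8 fell and 5 rose (median -0.75). HSP70 (AT3G12580), a chaperone gene, was at 22.00, 20.98 and 21.2 TPM in efs, against 112, 93.5 and 102 TPM in Col (log2 difference -2.21, SE 0.07, adjusted p = 1.5e-11, limma). HSP90.1, another chaperone gene, was at 23.1, 22.7 and 22.4 TPM in efs, against 66.97, 51.3 and 61.6 TPM in Col (log2 difference -1.35, SE 0.09). HSP101, a disaggregase gene, fell by a log2 difference of -1.11, HSFB2A, a heat factor gene, by one of -1.71, and the coactivator gene MBF1C, which overlaps 3 annotated genes, by one of -1.96. The 5 that rose were 4 genes of small heat shock proteins and the factor gene HSFA7A, which is named after its value was seen, at log2 differences of 0.52 to 1.12. Factor genes thus stood on both sides.

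Among hormone genes, those of cytokinin feedback and ethylene signalling rose. Type-A response regulators, which are induced by cytokinin and damp its signal, were higher in 4 of 7 tested members and lower in none (median 0.90). ARR4 was at 85.9, 83.6 and 84.1 TPM in efs, against 41.2, 35.1 and 37.4 TPM in Col (log2 difference 1.14, SE 0.07). ARR5, ARR7 and ARR3 rose by 0.93, 1.02 and 0.90, and ARR6 was at 0.28 and not called. Ethylene receptor and signalling genes were higher in 9 of 13 members and lower in none (median 0.34), with 6 higher and 1 lower under the median-of-ratios scaling. ARGOS, which lowers ethylene sensitivity, was at 24.01, 21.2 and 28.2 TPM in efs, against 9.66, 8.198 and 9.23 TPM in Col (log2 difference 1.34, SE 0.11). The receptor genes ERS1 and ERS2 rose by 0.84 and 0.81, the F-box gene EBF2 by 0.55 and the kinase gene CTR1 by 0.41.

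Genes of the abscisic acid response fell in 13 of 20 tested members and rose in 4 (median -0.36). COR15A, a cold- and drought-induced protective protein gene, was at 6.24, 5.02 and 6.75 TPM in efs, against 17.8, 20.3 and 23.8 TPM in Col (log2 difference -1.62, SE 0.12). RD29A and RD29B, drought-induced genes, fell by log2 differences of -1.26 and -0.71, and the bZIP factor gene ABF3 by one of -0.81. PP2CA, a phosphatase that damps the response, was 1 of the 4 that rose, at 90.6 ± 6.26 TPM in efs, against 57.1 ± 4.71 TPM in Col. In the jasmonate list, 12 of 22 members rose and 7 fell (median 0.27), and 9 and 8 under the median-of-ratios scaling. LOX2 and LOX3, lipoxygenases at the start of synthesis, were at 27.4 ± 1.59 and 6.15 ± 0.356 TPM in efs, against 92.2 ± 10.8 and 18.7 ± 2.94 TPM in Col. JAZ7 (AT2G34600), a repressor of the response, was at 14.5, 15.7 and 13.7 TPM in efs, against 0.802, 0.467 and 0.6204 TPM in Col (log2 difference 3.26, SE 0.18). CYP94C1, which oxidises the active hormone, and VSP1, a storage protein gene induced by it, rose by 1.8 and 1.14.

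The remaining growth hormone lists held calls in both directions, as did all genes (31.9% higher and 17.7% lower). For brassinosteroids 8 of 19 genes were higher and 5 lower (5 and 5 under the median-of-ratios scaling). The response factor genes BEE3 and BEE1 rose by 1.32 and 0.97, and BEE2 fell by a log2 difference of -0.45. The genes of the last synthesis steps, BR6OX1 and BR6OX2, fell by log2 differences of -0.76 and -0.46. Of 18 gibberellin genes 5 were higher, 1 was lower and 12 were not called, shares below those of all genes in both directions. The biosynthetic gene GA20OX2 and the catabolic gene GA2OX2 rose by 0.97 and 1.23, the DELLA repressor genes GAI and RGL1 by 0.53 and 0.92, and the DELLA gene RGL2 fell by a log2 difference of -0.47. The lower count was 3 without Col replicate 1, and 2 under the median-of-ratios or quantile scaling, a constant prior variance or a replicate block, or without efs replicate 1 or Col replicate 3. Of 18 auxin response genes 7 were higher and 4 lower, and 4 were higher under the median-of-ratios or quantile scaling, with the 6 libraries alone, or without efs replicate 1 or 2. IAA19 rose by 0.85 and GH3.5, which conjugates auxin, fell by a log2 difference of -0.66. Of 13 genes of PIF factors and the shade response 5 were higher and 5 lower, 3 and 6 under the median-of-ratios scaling, and 3 were higher without efs replicate 2 or without Col replicate 2 or 3. PAR1, a brake on shade growth, was at 43.7, 41.6 and 44.5 TPM in efs, against 10.9, 12.9 and 14.9 TPM in Col (log2 difference 1.68, SE 0.11), while HFR1, another such brake, fell by a log2 difference of -1.02.

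The 12 largest rises also took in genes outside the wall, sugar and proline groups. CRA1 (AT5G44120), a cruciferin seed storage protein gene, was at 39.7, 38.9 and 36.4 TPM in efs, against 1.76, 1.03 and 1.64 TPM in Col (log2 difference 4.0, SE 0.14). DREB26 (AT1G21910), an ERF-type factor gene, was at 75.2, 75.5 and 75.9 TPM in efs, against 8.37, 5.34 and 4.89 TPM in Col (log2 difference 3.44, SE 0.13). BCB (AT5G20230), a blue-copper-binding protein gene, was at 75.7, 82.04 and 72.9 TPM in efs, against 10.8, 9.72 and 6.04 TPM in Col (log2 difference 3.01, SE 0.14). In each of these, as for the 12 as a whole by the rule that chose them, the groups do not overlap. AT1G19380, annotated as putative sugar (DUF1195), rose by 3.23 to 27.4 ± 2.04 TPM in efs, against 2.05 ± 0.4604 TPM in Col.

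Of the 12 largest falls, 9 carry no gene symbol in the annotation. AT2G15020, annotated as an uncharacterized protein, was at 1.01, 0.799 and 1.66 TPM in efs, against 63.9, 43.2 and 44.6 TPM in Col (log2 difference -4.58, SE 0.17, adjusted p = 4.2e-11, limma). AT2G15029, close to it on chromosome 2 and overlapping AT2G15030, was listed at 0 TPM in each efs library, against 14.5, 14.4 and 22.5 TPM in Col. AT3G44450, given no symbol or function by the annotation used here, was at 2.67, 1.65 and 2.23 TPM in efs, against 16.2, 25.8 and 28.1 TPM in Col (log2 difference -2.91, SE 0.18). The efs libraries lay below all Col libraries in each. AT2G24945 and AT1G75945, likewise without a function in that annotation, fell by log2 differences of -3.1 and -2.91. AT5G05060, of the cystatin superfamily, was at 8.61 ± 0.381 TPM in efs, against 80.7 ± 5.17 TPM in Col, and AT5G56380, an F-box gene, at 1.81 ± 0.3302 TPM in efs, against 21.1 ± 1.89 TPM in Col. AT2G27420, of the cysteine proteinases, and AT2G19650, of the C1 domain family, fell by log2 differences of -2.87 and -2.98.

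The efs libraries were also tested directly against those of the H3.3 lines, in contrasts that share the efs libraries with the comparison above. Against K36A, 17.7% of genes were higher in efs (3464) and 19.7% were lower (3846). Against T31A, 22.8% were higher in efs (4461) and 16.6% were lower (3246). CRTISO was at 1.65 ± 0.0735 TPM in efs, 4.43 ± 0.0302 TPM in K36A, 27.8 ± 0.884 TPM in T31A and 33.4 ± 0.7103 TPM in Col. It was lower in efs than in K36A by a log2 difference of -1.03 (adjusted p = 5.6e-08, limma) and lower than in T31A by one of -3.44. MAF1 was at 1.18 ± 0.109 TPM in efs, 1.41 ± 0.168 TPM in K36A, 11.97 ± 0.379 TPM in T31A and 14.9 ± 0.733 TPM in Col, and the difference from K36A, -0.14 (SE 0.09), was not called (adjusted p = 0.253, limma). MAF2 and MAF3 were higher in efs than in K36A, by 0.82 and 1.08, and did not pass the test against T31A (-0.05 and -0.18). So within the FLC clade 2 members were higher and 1, FLC, was lower in efs than in K36A, and 4 were lower than in T31A.

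Genes of sugar starvation, with 17 of 18 higher and none lower in each contrast, stood higher in efs than in either H3.3 line. ASN1 was at 597 ± 5.54 TPM in efs, 62.5 ± 0.212 TPM in K36A, 118 ± 2.94 TPM in T31A and 78.8 ± 4.605 TPM in Col. MIOX2 was at 217 ± 8.88 TPM in efs, 7.61 ± 0.882 TPM in K36A, 16.9 ± 0.537 TPM in T31A and 5.93 ± 1.55 TPM in Col. For both genes each efs library lay above the libraries of the other genotypes. The greening regulators were lower in efs in 5 of 5 in each contrast, with GLK2 at 31.96 ± 1.72 TPM in efs, 105 ± 8.18 TPM in K36A, 60.6 ± 2.87 TPM in T31A and 150.4 ± 7.55 TPM in Col. Aliphatic glucosinolate genes were lower in efs in 13 of 15 against K36A and in 12 of 15 against T31A. SPX1 was at 14.2 ± 1.35 TPM in efs, 96.4 ± 11.95 TPM in K36A, 50.6 ± 2.04 TPM in T31A and 85.1 ± 6.31 TPM in Col, and the phosphate list was lower in efs in 10 of 11 members against K36A and in 6 against T31A. LAZ5 was at 3.41 ± 0.324 TPM in efs, 13.98 ± 1.45 TPM in K36A, 16.00 ± 1.199 TPM in T31A and 20.2 ± 1.79 TPM in Col.

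The wall and growth genes did not all separate efs from T31A. PHI-1 was at 305 ± 11.2 TPM in efs, 23.5 ± 2.18 TPM in K36A, 111 ± 4.64 TPM in T31A and 3.59 ± 0.608 TPM in Col, and was higher in efs than in either line (3.64 and 1.45, SE 0.09 for T31A). TCH4 was likewise higher in efs, by 2.82 against K36A and 1.59 against T31A. XTH25, by contrast, was at 15.9 ± 0.359 TPM in efs, 2.92 ± 0.513 TPM in K36A, 14.96 ± 0.182 TPM in T31A and 1.94 ± 0.418 TPM in Col, and efs minus T31A was 0.08 (SE 0.11, adjusted p = 0.62, limma). EXL5, EXLA2 and EXPA1 also had differences of -0.02, 0.02 and 0.00 from T31A and were not called (SE 0.13, 0.08 and 0.08). A p that misses the threshold does not show that the levels are equal. Morning clock genes were lower in efs than in K36A in 7 of 9 members and none was higher, whereas against T31A 4 were higher and 3 lower. CYP71A12 had its largest difference against T31A, where it was lower in efs by -4.88, with 0.4503 ± 0.179 TPM in efs, 2.25 ± 0.365 TPM in K36A, 41.6 ± 1.03 TPM in T31A and 2.79 ± 0.123 TPM in Col. Among the largest falls against Col, AT1G75945 was higher in efs than in T31A (1.12) and AT5G05060 was higher in efs than in K36A (0.30).

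**Figure D4:**
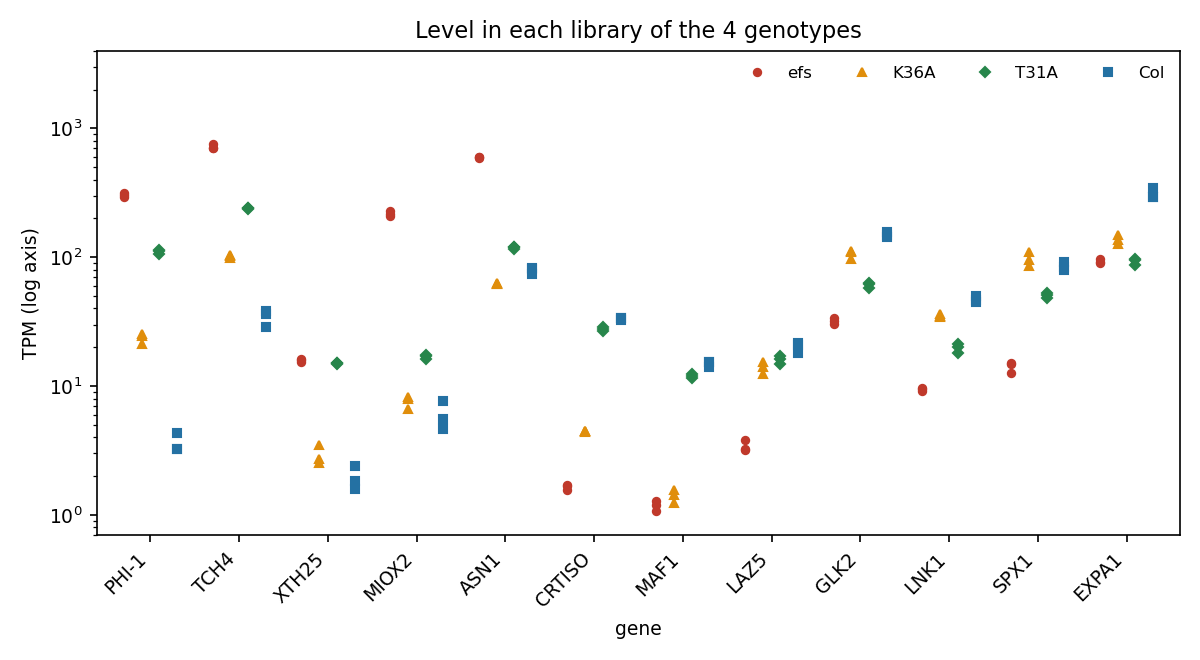
TPM on a log axis in each of the 3 libraries of efs (red circles), K36A (orange triangles), T31A (green diamonds) and Col (blue squares) for 12 genes. CRTISO is near 1.65 TPM in efs and near 33.4 TPM in Col, MAF1 is similarly low in efs and K36A, and XTH25 is similarly high in efs and T31A.

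Genes were also compared by their structure and place. Gene span is the length in the TPM, so it enters the filter of at least 1 TPM and the log2(TPM + 1) scale. Calls varied with level too. The lowest of 5 bins of mean TPM had 26.5% called higher and 14.6% lower, the highest 34.6% and 25%. By gene span in 5 bins of near-equal size, the share called higher in efs was 36.3% in the bin of 27 to 1563 bases and 25% in that of 3612 to 27265 bases, and the share called lower was 16.6% and 15% in the same bins. This slope was tied to 1 library: without Col replicate 1 the shares called higher were 34.9% and 33.9%. By exon number, 36.9% of 3066 genes with 1 exon were called higher and 17.5% lower, against 20.7% and 11% of 1119 genes with 16 to 77 exons. Without Col replicate 1 these shares higher were 39.7% and 29%. Under the median-of-ratios scaling genes with 1 exon and with 16 to 77 exons were called higher in 27.7% and 12.6% and lower in 21.8% and 20.4%. Under the same scaling the shortest and the longest genes were called higher in 26.2% and 15.9% and lower in 20.2% and 23.6%. Genes with many exons were thus called higher less often in each of these fits, whereas the shares called lower depended on the scaling. The share called higher ranged over the 5 chromosomes from 31.6% to 33.1%. Within 500000 bases on either side of EFS, 38.7% of 217 genes were called higher and 19.8% lower, against 31.8% and 17.7% of the other 19319 genes, and under the median-of-ratios scaling 26.7% and 23%, against 21.3% and 23.8%. These shares are a description, and neighbouring genes are not independent.

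**Figure D5:**
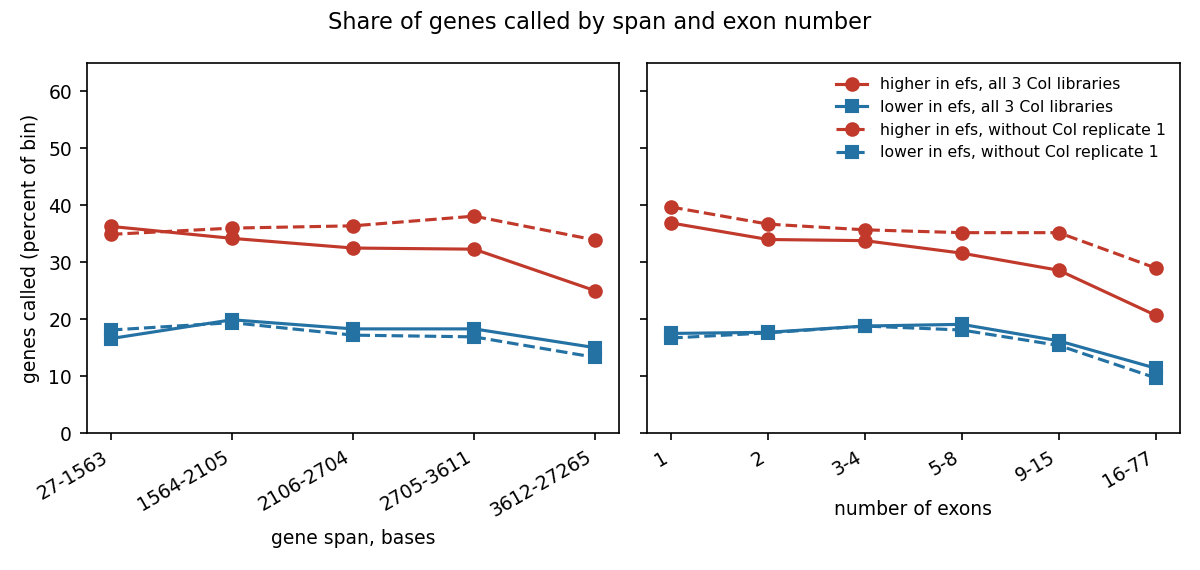
Percent of genes called higher (red) and lower (blue) in efs by gene span in bases (left) and number of exons (right). Solid lines use the 3 Col libraries and dashed lines leave out Col replicate 1, without which the shares higher at the ends of the span axis are 34.9% and 33.9%.

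Promoter windows, from 250 bases before to 50 after the annotated start, were searched on both strands for 9 motifs in 19420 nuclear protein-coding genes. CGCGTT was found in 8.3% of genes that were higher by at least 2-fold (48 of 576), in 2.3% of those lower by at least 2-fold (14 of 610) and in 3.7% of all (718). The shares were 8.1% and 2.2% without Col replicate 1. CACGTG was found in 8.7% of the higher genes, 12.3% of the lower genes and 9.0% of all, and ACGTGGC, which overlaps it in 440 promoters, in 4.3%, 7.5% and 4.9%. GATAAG, the site of GATA factors, was found in 19.1% and 20.2% of the higher and lower genes and 14.9% of all. The evening element AAAATATCT was found in 4.5%, 4.8% and 3.1%, and ACTCAT in 16.7%, 15.4% and 14%. The shares of GCCGCC (1.7%, 2.5% and 2.6%), TTGACC (14.1%, 13.8% and 14.4%) and TGTCTC (15.1%, 12% and 13.7%) lay closer to those of all genes. Of the 12 largest rises, PHI-1 and EXLA1 hold CGCGTT, and none of the 12 largest falls does. CACGTG was in 1 of these rises (JAZ7) and in 0 of these falls, unlike its shares among all 2-fold changes. ACTCAT was in 3 of the rises, ERD5 among them, and in 4 of the falls. A match describes the letters in a window, is no measure of binding, and was not tested.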

How the data were processed

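RNA of 12 libraries was measured, 3 each of efs, K36A, T31A and Col, grouped by their titles. The submitters' processing notes name DESeq2 1.26.0, HISAT2 2.1.10, fastp 0.20.1 and the build TAIR10. Read counter and strand setting are not given in the sources used here. TPM values were made by the authors and are what the table holds, although its column names speak of gene counts: each column has the same sum, and steps in the low values gave back 17620998 to 34098031 reads per library. Gene length in the TPM was the gene span with introns, so levels of different genes compare on that scale only. Of 23916 locus codes, 23745 were found in RefSeq's TAIR10.1, used for names, coordinates, overlaps and promoters, and 171 organelle codes were not.

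In R 4.3.3, limma 3.58.1 was fitted to log2(TPM + 1) of the 12 libraries in 4 groups with a mean-dependent prior variance, and a two-sided moderated test was adjusted by Benjamini-Hochberg over 19536 genes. The 6 efs and Col libraries decided which genes were tested. The script was tested on simulated data. The members, the 40 gene lists used and the tests were chosen with earlier results of these data known, and lists carry no test of their own. A total of 512 list members were tested of 578. The genes named are EFS, the FLC clade, CRTISO, and the 12 largest rises and falls of called genes that code for proteins, have a mean of at least 5 TPM and show no overlap of the groups. From each list the 5 lowest p-values at most were named, and any member of a list of up to 9 could be named. Alternatives were other pseudocounts, filters, scalings and prior variance, a replicate block and each library left out.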

Additional observations from a re-analysis of the deposited data

How the results depend on the processing

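Of 9684 genes called between efs and Col, the count was 8178 to 10296 when libraries were left out one at a time, the highest without Col replicate 1, where 8796 were among the 9684. The share of called genes that were higher, 64.3%, was 61.7% to 67.7% in those fits, 51.2% with quantile normalization and 47.3% with median-of-ratios factors, where its side changed because the factors lower efs against Col. The counts of at least 2-fold changes depended on the pseudocount: 890 higher with a pseudocount of 0.1, and 304 higher and 297 lower with 5, by construction of the scale. Further counts were 8516 with the 6 libraries alone, 9909 with no filter, 8266 with a mean of at least 5 TPM, 9668 with nuclear genes only and 9523 with a constant prior variance. The contrasts with K36A and T31A stayed within 1.5 times in every setting run. The log2 difference of EFS, near 0, changed sign, from -0.09 without Col replicate 2 to 0.08 without Col replicate 1 when libraries were left out. That of P5CS2, also near 0, was -0.1 with median-of-ratios factors, -0.06 with quantile normalization, and -0.01 without Col replicate 1 to 0.02 without efs replicate 2 among the fits that left a library out. Same-numbered libraries of efs and Col correlated at 0.123, 0.043 and 0.243 in their deviations from the group means, so not every pair exceeded 0.1, and the labels give no shared origin for a number. Each library correlated best with its own number, against -0.162 to 0.042 for unlike numbers. For efs replicate 2 the margin was slight, 0.043 with Col replicate 2 and 0.042 with Col replicate 1. Deviations from a group mean sum to 0, so like and unlike values are not independent. Any hint of pairing is thus weak, and comes from the data and not from the design. A fit with a replicate block called 9654 genes, of which 9417 were among the 9684. Depth limits genes near 1 TPM, where the log2(TPM + 1) scale shrinks differences.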

Other observations

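Genes grouped by the product names of the annotation, chosen after their values were seen, are given as counts. On TPM as deposited the background is 31.9% higher and 17.7% lower. Under the median-of-ratios scaling it is 4172 higher and 4656 lower of 19536 genes, and without Col replicate 1 it is 6972 and 3324. Of 50 WRKY factor genes, 28 were higher in efs and 5 lower, with 6 higher and none lower by at least 2-fold. Of 308 ribosomal protein genes, 150 were higher and 13 lower on TPM as deposited, and 59 and 25 under the median-of-ratios scaling. Of 173 F-box genes, 35 were higher and 59 lower, with 23 lower and none higher by at least 2-fold, and the counts were 18 and 72 under the median-of-ratios scaling. Of 152 cytochrome P450 genes, 47 were higher and 63 lower, with 6 higher and 30 lower by at least 2-fold. Of 137 genes annotated as disease resistance, 30 were higher and 51 lower, and without Col replicate 1 the counts were 41 and 49. B-box genes, many of which act in light signalling, fell in 10 of 18 and rose in 4.

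Flavonoid genes split in efs, with 3 of 13 tested members higher and 4 lower. TT4, the chalcone synthase gene, was at 130.2, 121 and 127 TPM in efs, against 72.8, 48.6 and 50.95 TPM in Col (log2 difference 1.14, SE 0.13), and overlaps AT5G13940. The flavonol glycosyltransferase genes UGT78D1 and UGT78D2 fell by log2 differences of -0.97 and -0.94. Against K36A, 11 of the 13 were lower in efs and none was higher. Of 7 tested seed storage and maturation genes, 4 were higher, led by CRA1, and 1 was lower (none without efs replicate 1), and the cruciferin gene CRC was at 2.18, 3.66 and 2.71 TPM in efs, against 0.661, 0.154 and 0.102 TPM in Col. Both cruciferin genes differed from T31A, CRA1 higher in efs by 1.03 and CRC lower by a log2 difference of -2.45. Of 9 hypoxia genes, 5 were higher and 1 lower, among them LBD41 at 1.28, HRE1 at 1.24 and PCO2, the one that fell, at -1.34. Of 9 salicylic acid genes, 3 were higher and 2 lower, with 1 lower when efs replicate 1 or Col replicate 1 was left out. These shares are near those of all genes (31.9% higher and 17.7% lower). WRKY70 had the largest rise of them, 1.47 (SE 0.12). Of 12 strigolactone and karrikin genes, 1 was higher and 2 lower, or 2 higher without Col replicate 1 or 2 and 4 lower under the median-of-ratios scaling, and BBX20 was the rise, at 6.86 ± 0.0697 TPM in efs, against 2.28 ± 0.105 TPM in Col. Of 6 wax genes 1 was lower, CER6 at -0.63, 2 were lower under the median-of-ratios or quantile scaling, and 1 was higher without Col replicate 3. Of 8 genes of the DNA damage response 2 were higher, or 1 without efs replicate 3 or Col replicate 3, and 1 was lower, the ribonucleotide reductase gene TSO2 at -0.83. On TPM as deposited, the strigolactone, wax and DNA damage lists lay below the shares of all genes in both directions. Of the tested genes, 1 was listed at 0 TPM in the 3 Col libraries and 3 in the 3 efs libraries.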
